A study of Homo sapiens with 6 samples.

Results

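The dual-specificity phosphatases described here are the 10 MAP kinase phosphatases (MKPs) DUSP1, DUSP2, DUSP4, DUSP5, DUSP6, DUSP7, DUSP8, DUSP9, DUSP10 and DUSP16. They were taken by gene symbol from the 19973 genes of the deposited table, and each symbol matched 1 row. RNA-seq was performed on OVCAR3, an established human ovarian cancer cell line, after transfection with shNC, a control hairpin (3 libraries, genotype labelled WT), or with shNUF2, a hairpin against the kinetochore gene NUF2 (3 libraries, genotype labelled NUF2 knockdown). Both kinds of cells were selected with puromycin to obtain stable lines, and the hairpins were expressed from a U6 vector that carries the puromycin marker. NUF2 was targeted with 1 hairpin, and the labels do not say whether the libraries of a group came from separate cultures, so that the p-values measure the spread between these libraries, which may be technical. The comparison asks which MKP transcripts differ when NUF2 is lowered.

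MAP kinases are switched on when a pair of residues in their activation loop, a threonine and a tyrosine, is phosphorylated. MKPs remove both phosphates and switch the kinase off again. Many MKP genes are themselves transcribed in response to MAP kinase activity, so that their mRNA forms part of a negative feedback loop. By location and preferred substrate they fall into inducible nuclear enzymes (DUSP1, DUSP2, DUSP4 and DUSP5), cytoplasmic enzymes that prefer ERK (DUSP6, DUSP7 and DUSP9), and enzymes that prefer JNK and p38 (DUSP8, DUSP10 and DUSP16).

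The total counts ranged from 13057534 to 16995452 per library, and the biological coefficient of variation was 4.93%. NUF2 gave 903, 1096 and 1092 reads for shNC against 281, 290 and 384 for shNUF2, a ratio of 0.351 in normalised counts. The epithelial keratins KRT7, KRT8 and KRT18 and the ovarian lineage factor PAX8 were detected in all libraries, whereas WT1 had at most 7 reads in any library. Among markers of other cells, the 4 endothelial markers summed to between 0.226 and 0.439 FPKM (counts scaled by gene length and library total) with shNC and between 0.462 and 0.692 with shNUF2. The 5 fibroblast markers summed to between 9.44 and 10.1 FPKM with shNC and between 7.31 and 8.06 with shNUF2, most of it COL1A1. Of these 9 markers 5 had enough reads to be tested, of which DCN and CDH5 were higher and COL1A1 was lower with shNUF2. KDR and the T cell marker CD3E reached at most 1 read in any library, and the leukocyte markers PTPRC and CD14 at most 11, and the part of these markers in the results was not tested. In RNA from a whole culture, a change in every cell and a change in the share of cells that express a gene cannot be told apart.

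All 10 MKP genes had enough reads to be tested. They were chosen with earlier results of these data known, so that their counts beside the shares of all genes are a description. DUSP5, DUSP6, DUSP10 and DUSP4 were higher with shNUF2 by more than 1 on the log2 scale (unadjusted p under 0.05, edgeR), which are 4 of 10 beside 9.41% of the 12874 genes tested (13.6% in either direction). No member was lower by more than 1 (0 of 10), beside 4.16% of all genes tested. With the adjusted p alone, 6 members were higher, DUSP1 and DUSP7 being added (6 of 10, beside 33.9% of all genes tested), and DUSP2, DUSP9 and DUSP16 were lower (3 of 10, beside 33.8%). In either direction 67.6% of all genes tested passed, so that passing this test is the common case in these libraries. The median log2 fold change of the members was 0.37, and that of all genes tested was -0.01. These rises were spread over the functional classes, with 2 of the 4 inducible nuclear enzymes, 1 of the 3 cytoplasmic enzymes and 1 of the 3 JNK and p38 enzymes above 1. The plot of normalised counts by library shows this pattern for each gene.

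**Figure D1:**
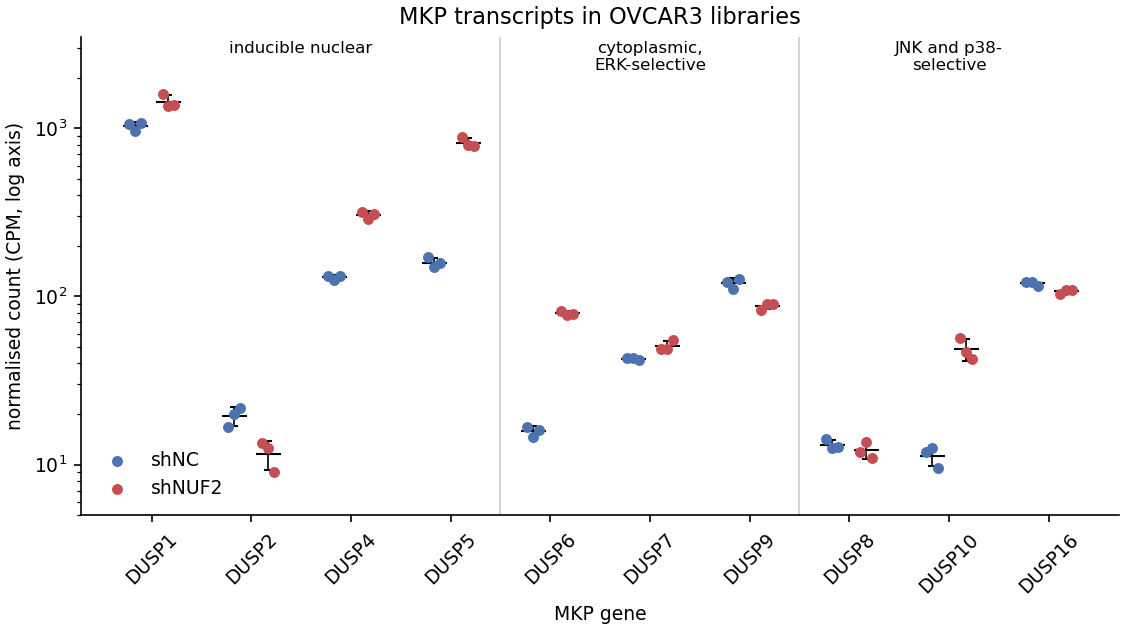
Normalised counts (CPM, scaled by TMM library size, log axis) of each MKP gene in the 3 shNC (blue) and 3 shNUF2 (red) libraries; points are libraries, and black bars are the group mean with its SD. The shNUF2 points of DUSP4, DUSP5, DUSP6 and DUSP10 stand well above the shNC points, those of DUSP2 and DUSP9 lie below them, and those of DUSP8 overlap them.

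The 250 bases upstream of the annotated start are shown for 4 members on which the data bear, DUSP6 and DUSP10, which rose by more than 1 on the log2 scale, and DUSP1 and DUSP8, which did not. The sequences are from RefSeq (GRCh38.p14), all on the minus strand, at chr12:89352502-89352751 for DUSP6, chr1:221742090-221742339 for DUSP10, chr5:172771196-172771445 for DUSP1 and chr11:1572272-1572521 for DUSP8. Each ends at the base before the start that the deposited table gives. Capitals mark matches, on either strand, to the cyclic AMP response element (CRE, TGACGTCA), the TATA box (TATAAA), the E-box (CACGTG) and the CCAAT box, which appears as its reverse complement where it lies on the other strand.
DUSP6: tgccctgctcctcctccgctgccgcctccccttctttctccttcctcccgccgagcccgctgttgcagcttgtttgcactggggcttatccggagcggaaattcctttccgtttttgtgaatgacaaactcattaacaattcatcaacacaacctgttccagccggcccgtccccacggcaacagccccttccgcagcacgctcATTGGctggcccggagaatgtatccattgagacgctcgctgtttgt
DUSP10: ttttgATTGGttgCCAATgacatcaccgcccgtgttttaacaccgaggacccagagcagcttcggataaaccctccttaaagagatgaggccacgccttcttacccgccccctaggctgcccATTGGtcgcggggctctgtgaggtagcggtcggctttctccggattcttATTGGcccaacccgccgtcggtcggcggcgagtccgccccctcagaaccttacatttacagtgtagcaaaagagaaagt
DUSP1: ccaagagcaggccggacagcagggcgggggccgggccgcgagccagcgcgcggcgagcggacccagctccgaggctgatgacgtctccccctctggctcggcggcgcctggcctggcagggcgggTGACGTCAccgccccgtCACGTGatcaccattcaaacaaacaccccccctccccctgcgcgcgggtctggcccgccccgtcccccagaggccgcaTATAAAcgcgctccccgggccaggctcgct
DUSP8: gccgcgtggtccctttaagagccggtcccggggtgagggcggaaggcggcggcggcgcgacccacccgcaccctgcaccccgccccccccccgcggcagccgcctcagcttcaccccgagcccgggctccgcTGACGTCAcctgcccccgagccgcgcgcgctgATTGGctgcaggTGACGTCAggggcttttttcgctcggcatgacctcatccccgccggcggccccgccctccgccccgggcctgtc
RefSeq windows were found for 8 of the 10 members, all but DUSP4 and DUSP5. TGACGTCA occurs 1 time in the DUSP1 window, starting 125 bases upstream, and at 118 and 74 bases upstream in the DUSP8 window, and it is held by 1.63% of all 34943 windows of this length. The windows of the other 6 members, DUSP2, DUSP6, DUSP7, DUSP9, DUSP10 and DUSP16, contain no match to it, whether or not the gene rose by more than 1 on the log2 scale. CCAAT occurs 4 times for DUSP10, 1 time for DUSP6 and 1 time for DUSP8, and 32.0% of all windows hold it. TATAAA, 30 bases upstream in DUSP1, was found in no other member (10.8% of all windows), and CACGTG was found in DUSP1 and DUSP2 (6.32% of all windows). The shorter core TGACG, which the CRE contains on both strands, occurs 4 times in the DUSP1 window, of which 2 lie within the CRE and 1 overlaps the E-box. It also occurs 4 times in the DUSP8 window, all within the 2 CREs, and 21.2% of all windows hold it. Matches to GGGCGG were found in 7 of the 8 windows, all but that of DUSP6, and in 42.5% of all windows. Matches to TGANTCA (AP-1), CCGGAA (ETS) and the CArG box bound by serum response factor were found in 0 of the 8 windows, beside 6.59%, 14.5% and 1.16% of all windows. The windows of DUSP6 and DUSP10 contain 57.2% and 56.4% G and C, near the median of 58.0% over all windows, whereas the other 6 lie between 74.0% and 78.4%. A match describes the letters of the window and says nothing of binding.

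Among the inducible nuclear enzymes, DUSP5 (ENSG00000138166, chromosome 10 of GRCh38 from 110497907 to 110511533), which binds and dephosphorylates ERK in the nucleus, changed most. It was counted 2437, 2394 and 2698 times in the shNC libraries against 11950, 10272 and 11844 times in the shNUF2 libraries. The lowest shNUF2 library had more than 4 times the normalised count of the highest shNC library, at 788 against 171 CPM (counts scaled by TMM library size, with no correction for gene length). The means were 159 ± 11.0 CPM for shNC (SD, n = 3) against 821 ± 56.4 CPM for shNUF2 (SD, n = 3), a 5.16-fold difference, with a log2 fold change of 2.37 (SE, the standard error, 0.05, adjusted p = 6.25e-23, quasi-likelihood test of edgeR). By FPKM, a level per gene length, DUSP5 went from place 508 among the 19973 genes with shNC to place 70 with shNUF2. GENCODE release 29 lists 2 processed pseudogenes of DUSP5, with which its reads could be shared.

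DUSP4 (ENSG00000120875, chromosome 8 from 29333064 to 29350684), a nuclear phosphatase that acts on ERK and JNK, gave 1892, 1993 and 2275 reads for shNC against 4277, 3771 and 4653 for shNUF2. The groups were clearly apart, with 133 CPM in the highest shNC library and 290.2 CPM in the lowest shNUF2 library. The mean was 130 ± 4.61 CPM for shNC (SD, n = 3) against 306 ± 14.0 CPM for shNUF2 (SD, n = 3), and its log2 fold change was 1.23 (SE 0.05, adjusted p = 3.92e-18 by edgeR).

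DUSP1 (ENSG00000120129, chromosome 5 from 172768096 to 172771195), the founding MKP and an immediate early gene whose product dephosphorylates p38, JNK and ERK, was by far the most abundant member by FPKM. It gave 15001, 15427 and 18558 reads for shNC against 21482, 17523 and 20560 for shNUF2, and it stood at place 33 by FPKM among all genes of the table with shNC and at place 21 with shNUF2. After normalisation the shNC libraries were at 1055, 965 and 1079 CPM and the shNUF2 libraries at 1594, 1348 and 1367 CPM. The groups did not overlap, but the change was modest, 1.39-fold, with a log2 fold change of 0.48 (SE 0.05, adjusted p = 9.42e-09 by edgeR). Without shNUF2 replicate 1, the highest library, the log2 fold change was 0.39.

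DUSP2 (ENSG00000158050, chromosome 2 from 96143169 to 96145440), known chiefly from activated lymphocytes, went the other way. It gave 238, 318 and 373 reads for shNC against 180, 162 and 136 for shNUF2. Its normalised counts fell from 19.4 ± 2.50 CPM (SD, n = 3) to 11.6 ± 2.28 CPM (SD, n = 3), 0.598 of the shNC level. The groups did not overlap, and the log2 fold change was -0.75 (SE 0.13, adjusted p = 1.64e-05 by edgeR). With each library left out in turn, it ranged from -0.87 to -0.60.

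Among the cytoplasmic enzymes, DUSP6 (ENSG00000139318, chromosome 12 from 89347235 to 89352501), a phosphatase highly selective for ERK, gave 239, 232 and 276 reads for shNC against 1106, 1002 and 1187 for shNUF2. The normalised counts of each group lay close together, at 16.8, 14.5 and 16.0 CPM with shNC and 82.1, 77.1 and 78.9 CPM with shNUF2, a 5.03-fold difference between the means, with a log2 fold change of 2.33 (SE 0.07, adjusted p = 8.63e-20 by edgeR). In FPKM its level was 4.14 ± 0.286 for shNC (SD, n = 3) against 20.3 ± 0.45 for shNUF2 (SD, n = 3), so that DUSP6 moved from place 7713 to place 2238 among all genes. Its rank by log2 fold change among the genes tested, 257, was next to that of DUSP5, 250.

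The other cytoplasmic enzymes, close relatives of DUSP6 with a like preference for ERK, moved less. DUSP7 (ENSG00000164086, chromosome 3 from 52048919 to 52056571) had 41.6 to 43.1 CPM with shNC and 48.8 to 54.7 CPM with shNUF2, with a log2 fold change of 0.26 (SE 0.07, adjusted p = 0.00148 by edgeR). DUSP9 (ENSG00000130829, chromosome X from 153642492 to 153651326) gave 1741, 1776 and 2184 reads for shNC against 1121, 1174 and 1351 for shNUF2. The mean was 120.2 ± 8.15 CPM for shNC (SD, n = 3) against 87.8 ± 4.0 CPM for shNUF2 (SD, n = 3), with no overlap between the groups. The log2 fold change of DUSP9 was -0.45 (SE 0.05, adjusted p = 4.75e-08 by edgeR).

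Of the enzymes that prefer JNK and p38, DUSP10 (ENSG00000143507, chromosome 1 from 221701424 to 221742089), a phosphatase of p38 and JNK, gave 168, 199 and 164 reads for shNC against 767, 609 and 637 for shNUF2. Its normalised counts were 11.8, 12.5 and 9.53 CPM with shNC and 56.9, 46.9 and 42.4 CPM with shNUF2, so that the groups stood far apart while shNUF2 replicate 1 was the highest library. The means differed 4.32-fold, with a log2 fold change of 2.11 (SE 0.11, adjusted p = 3.81e-15 by edgeR), and the log2 fold change was 1.99 without shNUF2 replicate 1.

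DUSP16 (ENSG00000111266, chromosome 12 from 12473282 to 12562863), a JNK phosphatase, was slightly lower, at 116 to 122 CPM with shNC and 103 to 109 CPM with shNUF2. The log2 fold change of -0.16 passed the test (SE 0.05, adjusted p = 0.00476 by edgeR), and the groups did not overlap. DUSP8 (ENSG00000184545, chromosome 11 from 1554051 to 1572271) had between 160 and 218 reads per library. Its groups overlapped, at 12.5 to 14.1 CPM with shNC and 11.0 to 13.6 CPM with shNUF2, and its log2 fold change of -0.11 was smaller than its standard error of 0.12 (adjusted p = 0.463 by edgeR). GENCODE release 29 lists 3 processed pseudogenes of DUSP8. The annotation also places a gene on the opposite strand over part of DUSP1, DUSP6, DUSP8 and DUSP16, and although the library kit keeps the strand, the strand setting of the counting is not given in the sources used here.

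Every one of the 9 members other than DUSP8 gave an exact two-sided permutation p of 0.10 on normalised counts, the smallest that 3 libraries against 3 allow. Without overlap, 6 members were higher (beside 35.2% of all genes tested) and 3 were lower (beside 35.4%), and 70.6% of all genes tested did not overlap in either direction. In 6 members, DUSP1, DUSP2, DUSP4, DUSP5, DUSP6 and DUSP10, shNUF2 replicate 1 was the highest library of its group. Without it, the log2 fold changes of the 4 members above 1 were 2.31 for DUSP5, 2.31 for DUSP6, 1.99 for DUSP10 and 1.20 for DUSP4.

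Set in order of FPKM, the members with shNC were DUSP1, DUSP5, DUSP9, DUSP4, DUSP16, DUSP2, DUSP7, DUSP6, DUSP10 and DUSP8. Of the neighbours in this order, only DUSP6 (3.83 to 4.39 FPKM) and DUSP10 (3.41 to 4.48 FPKM) had overlapping ranges over the 3 libraries. With shNUF2 the order was DUSP1, DUSP5, DUSP4, DUSP9, DUSP6, DUSP10, DUSP16, DUSP7, DUSP2 and DUSP8, in which only DUSP10 (14.8 to 19.7 FPKM) and DUSP16 (14.2 to 15.2 FPKM) overlapped. By mean FPKM, DUSP6 and DUSP10 thus passed DUSP16, DUSP7 and DUSP2, DUSP7 passed DUSP2, and DUSP4 passed DUSP9.

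The FPKM values of the members summed to 704, 653 and 715 in the shNC libraries and to 1259, 1118 and 1118 in the shNUF2 libraries. The mean was 691 ± 33.3 (SD, n = 3) in the former and 1165 ± 81.4 (SD, n = 3) in the latter, a ratio of 1.69, given as a description with no test. DUSP1 contributed 75.2% ± 0.57 of the sum with shNC and 60.3% ± 0.959 with shNUF2 (SD, n = 3 each), whereas the share of DUSP5 was 9.21% ± 0.459 and 27.4% ± 0.306. Without DUSP1, the remaining 9 members summed to 171 ± 5.79 FPKM and 462 ± 21.0 FPKM (SD, n = 3 each), a ratio of 2.70. Of these sums, DUSP5 alone held a mean of 63.6 FPKM with shNC and 319.6 FPKM with shNUF2, so that the ratio rests largely on DUSP5. By class, the sum of the inducible nuclear enzymes had a ratio of 1.75 in FPKM and 1.92 in CPM, and that of the JNK and p38 enzymes of 1.44 in FPKM and 1.17 in CPM. The cytoplasmic ERK enzymes summed to 55.7 ± 2.96 and 60.4 ± 1.69 FPKM (SD, n = 3 each), a ratio of 1.09, and had a ratio of 1.22 in CPM. The order of the JNK and p38 class and the cytoplasmic class by ratio thus turns with the unit. Within the cytoplasmic class, the higher level of DUSP6 stood beside the lower level of DUSP9, the more abundant of the pair by FPKM. The plot of summed FPKM shows the enlarged DUSP5 part in each shNUF2 library.

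**Figure D2:**
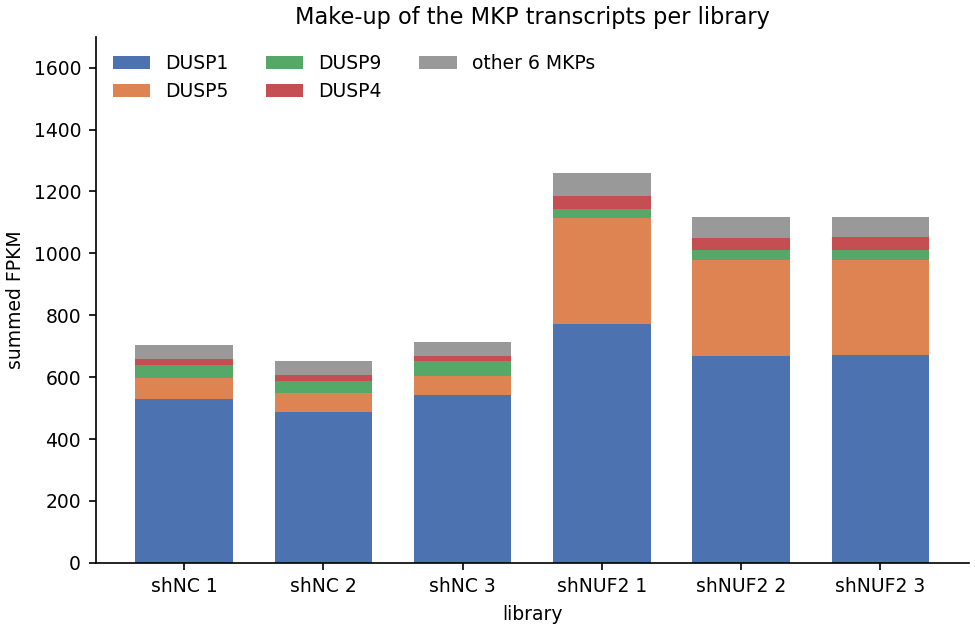
Summed FPKM of the 10 MKP genes in each library, split into DUSP1, DUSP5, DUSP9, DUSP4 and the other 6 MKPs. The shNC bars reach 653 to 715 and the shNUF2 bars 1118 to 1259, and the DUSP5 segment makes up 27.1% to 27.7% of the shNUF2 bars against 8.75% to 9.67% of the shNC bars.

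The atypical DUSPs, most of them small relatives that lack the MAP kinase binding domain of the MKPs, served as a comparison within the family. Of the 16 listed, 12 were tested, with values from -0.62 for DUSP28 to 0.63 for DUSP23 (median -0.06). Of these 12, 0 changed by more than 1 on the log2 scale, beside 13.6% of all genes tested in either direction. At that share few of 12 genes would be reached. By adjusted p, 4 were higher, DUSP3, DUSP11, DUSP22 and DUSP23, and 2 were lower, DUSP12 and STYX, beside 33.9% and 33.8% of all genes tested, so that 4 of 12 higher is near the share over all genes. The count of lower genes was 4 without shNUF2 replicate 2, and 5 and 4 with limma on log2(FPKM + 1) and log2(FPKM + 0.1). Of 10 further phosphatases known to act on MAP kinases, 8 were tested, and PTPRR, a tyrosine phosphatase that binds ERK and p38, had a log2 fold change of 2.25 (SE 0.22, adjusted p = 9.62e-10 by edgeR). PTPRR gave 17, 33 and 33 reads for shNC against 106, 114 and 125 for shNUF2. The remaining 7, subunits of PP2A and the PPM1 phosphatases, lay between -0.26 and 0.44. The plot of fold changes sets the MKPs beside these phosphatases.

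**Figure D3:**
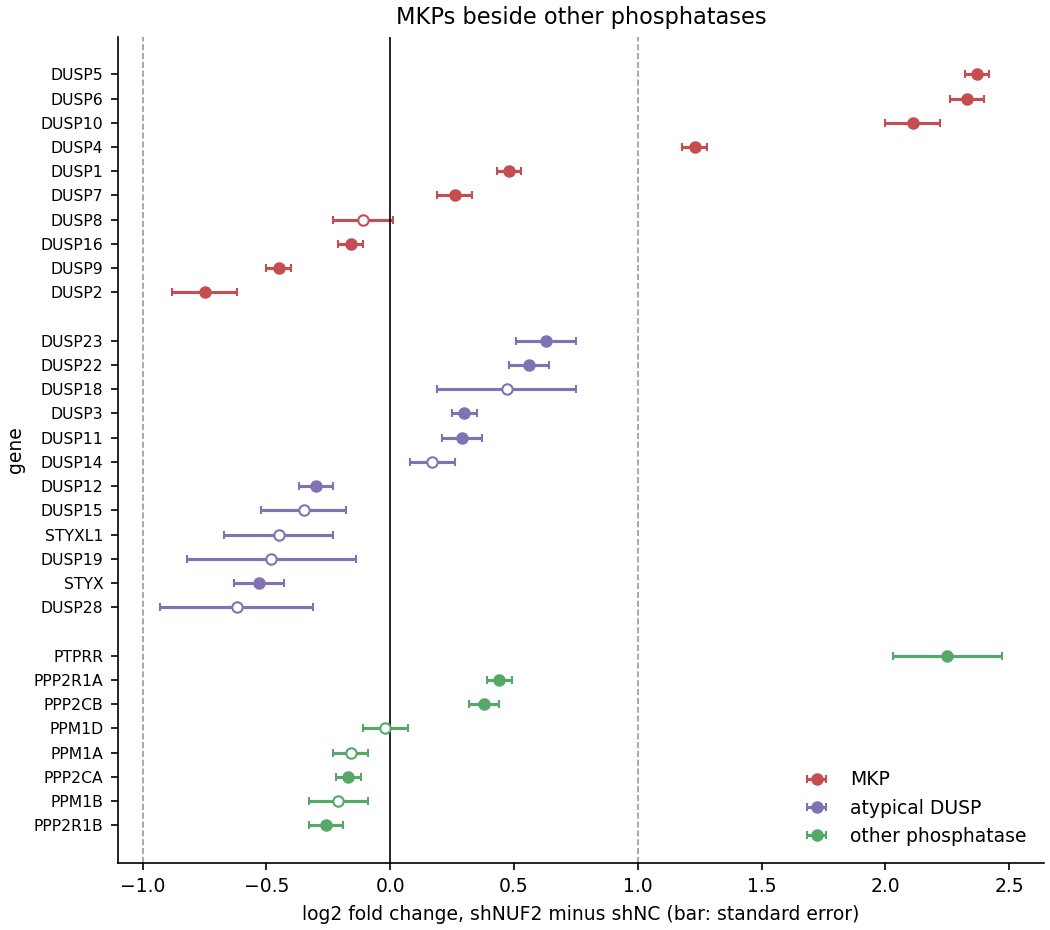
Log2 fold change of shNUF2 against shNC for the MKPs (red), the atypical DUSPs (violet) and the other phosphatases (green) that were tested; bars are standard errors, filled points have an adjusted p under 0.05, and dashed lines mark -1 and 1. DUSP5, DUSP6, DUSP10, DUSP4 and PTPRR lie right of 1, and every atypical DUSP lies between the dashed lines.

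The MAP kinases are the substrates of the MKPs. Of the 10 genes listed, 9 were tested, of which 5 were higher and 2 were lower by adjusted p (median log2 fold change 0.18). Together these are 7 of 9, beside 67.6% of all genes tested in either direction. The count of lower genes was 1 without shNC replicate 3, without shNUF2 replicate 3 and with DESeq2. MAPK3, which encodes an ERK kinase, was at 0.62 (SE 0.07, adjusted p = 1.26e-08 by edgeR). MAPK7, which encodes ERK5, and MAPK13, which encodes a p38 isoform, had log2 fold changes of 1.16 and 1.29. The JNK genes MAPK8 and MAPK9 were at 0.18 and -0.15, and MAPK14, the main p38 gene, was at -0.13. Upstream, 6 of 9 RAS, RAF and MAP2K genes of the ERK arm were higher and 3 were lower, all between -0.59 and 0.53. Of 10 kinases that feed JNK and p38, 4 were higher and 3 were lower, with MAP2K6, an activator of p38, at -3.61 and MAP2K3, another activator of p38, at 0.86. Both counts stand beside 33.9% higher and 33.8% lower of all genes tested, and those of the JNK and p38 kinases are near these shares.

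Other genes known for ERK feedback were set beside the MKPs. The lists were chosen with earlier results of these data known, so that their counts are a description and no test. Of 10 listed, 8 were higher and 2 were lower by adjusted p, and 5 were above 1 on the log2 scale (median 1.09), beside 33.9% higher, 33.8% lower and 9.41% above 1 of all genes tested. SPRY4, a Sprouty protein that dampens receptor signalling to ERK, was at 2.45, ERRFI1, an inhibitor of the EGF receptor kinase, at 2.44, and IER3 at 1.55, whereas NF1 and RASA1, which inactivate RAS, were at -0.51 and -0.32. Of 12 transcription factor genes that ERK is known to induce, 11 were tested, of which 6 were higher, 4 of them above 1, and 2 were lower, beside the same shares of all genes. FOSB at 2.99, FOSL1 at 2.32, ATF3 at 2.07 and JUN at 2.03 rose by more than 1, while EGR1 and ETV4 fell by 0.60 and 0.29 on the log2 scale and FOS was at 0.34 (adjusted p = 0.00915 by edgeR). ETV5 at 0.19, IER2 at 0.15 and ETV1 at -0.16 did not pass the test.

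The genes whose log2 CPM followed DUSP6 most closely over the 6 libraries were HMGA2, LYPD3, FAM107B, PLEK2 and IRS2, with Pearson's r from 0.9996 to 0.9999. A total of 837 of the other 12873 genes tested had r above 0.99, since the points fall into the 2 groups, and the values describe these libraries only. The MKPs are shown among all genes tested in the plot of level against change.

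**Figure D4:**
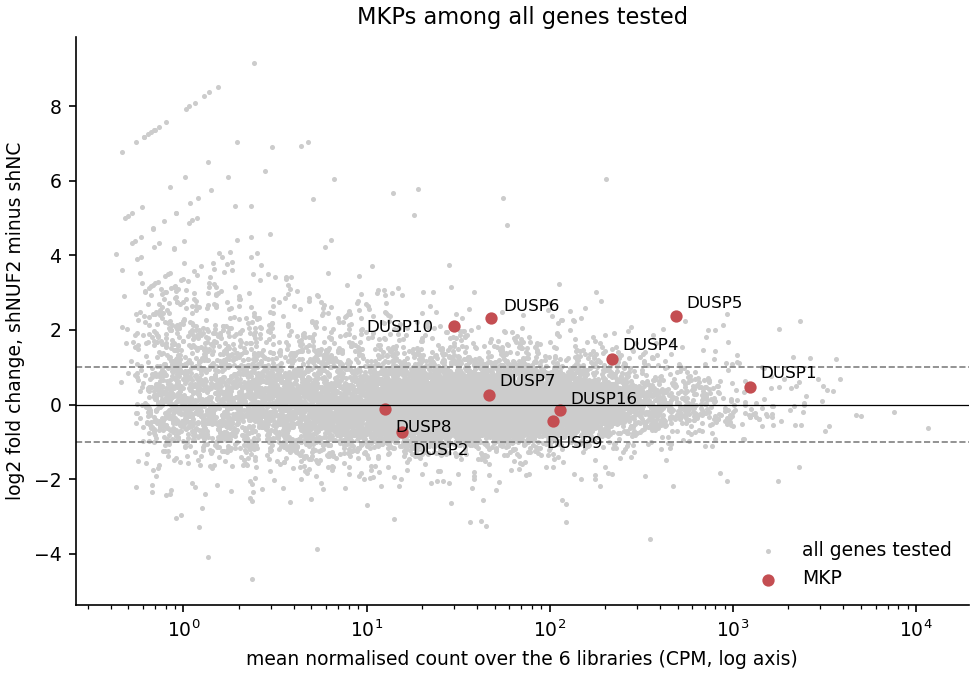
Log2 fold change of shNUF2 against shNC over the mean normalised count (CPM, log axis) of the 6 libraries for all 12874 genes tested (grey) and the MKPs (red); dashed lines mark -1 and 1. DUSP5 and DUSP4 lie above the upper line at high counts, DUSP6 and DUSP10 at intermediate counts, and DUSP1 lies farthest to the right.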

How the data were processed

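RNA was extracted with TRIzol, and libraries were prepared with a stranded mRNA kit and sequenced on an Illumina NovaSeq by a sequencing company. The submitters' processing notes name cutadapt, HISAT and HTSeq and the build GRCh38.p13; versions and settings are not given in the sources used here. The authors deposited raw read counts per gene and FPKM values, which equal the count divided by gene length and library total.

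Counts were compared with edgeR 4.0.16 in R 4.3.3 over the whole table (filterByExpr, TMM, quasi-likelihood test without covariates, Benjamini-Hochberg adjustment over all 12874 genes tested). The standard error (SE) was obtained from the log2 fold change and the F statistic. Genes were called at log2 fold changes beyond 1 with p under 0.05 before adjustment, or by an adjusted p under 0.05 alone. Pooled FPKM was described without a test. All members, NUF2, genes of the lists and the 5 genes most correlated with DUSP6 were named; the members and lists were chosen with earlier results of these data known. Motifs were searched on both strands. Some genes of the lists are not reported here by name.

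Alternatives were DESeq2 1.42.0, limma 3.58.1 on log2(FPKM + 1) and log2(FPKM + 0.1), other scalings and filters, edgeR's TREAT test, the replicate block and each library left out. On counts simulated for this comparison, edgeR recovered 200 of 200 genes changed by 2 on the log2 scale among 12834 genes, with 2 unchanged genes called. The changed genes were drawn from those above 1 in log2 CPM, with a common dispersion for all genes. Smaller changes and changed genes with few reads were not tried. Calculations outside R used Python 3.11.15, numpy 2.4.6, scipy 1.17.1 and pandas 2.3.3.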

Additional observations from a re-analysis of the deposited data

How the results depend on the processing

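In each of the alternatives run, 4 members were higher and 0 lower beyond 1 on the log2 scale. By adjusted p, 6 members were higher and 3 lower in all of them except the TREAT test, which asks for changes beyond 0.58 and called 4 higher and 0 lower, so that DUSP1, DUSP2, DUSP7, DUSP9 and DUSP16 no longer passed. Of 160 tests of member fold changes, 0 reversed and 155 kept their side of the adjusted p threshold, and the other 5 are these TREAT tests, in which the fold changes are those of the edgeR fit and the null hypothesis is another. Over all alternatives the log2 fold change ranged from 2.31 to 2.42 for DUSP5, 2.05 to 2.37 for DUSP6, 1.83 to 2.21 for DUSP10 and 1.15 to 1.27 for DUSP4, the lowest values of DUSP6 and DUSP10 with limma on log2(FPKM + 1). With the replicate block, the counts of members were also 4 and 0, and 6 and 3, and it changed no call of a member. The replicate numbers do not pair the libraries by the labels, and the deviations of libraries with the same number correlated at 0.02, 0.0046 and -0.03. The summed level of the members had a ratio of 1.78 in CPM and 1.69 in FPKM. Of 224 counts for the gene lists, 19 moved by more than 1.5 times, 13 of them with TREAT. Over all genes, limma on log2(FPKM + 1) called 430 higher and 206 lower beyond 1, against 1212 and 536 in edgeR. With limma on log2(FPKM + 0.1) these were 963 and 493. The test and the unit differ from edgeR as well as the pseudocount, and their parts were not tested. Depth limits DUSP2, DUSP6, DUSP8 and DUSP10 most, with at most 373 reads in any shNC library.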

Other observations

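The genes next to the members on the chromosome were examined after the values of the members were seen. Among the 20 tested genes that flank the 10 members on either side by the deposited positions, 8 were higher and 6 were lower with shNUF2 by adjusted p (edgeR's quasi-likelihood test, Benjamini-Hochberg adjustment over all genes), beside 33.9% higher and 33.8% lower of all genes tested, and 2 changed by more than 1 on the log2 scale in either direction, beside 13.6% of all genes tested. These were NEURL1B at 1.76, 76556 bp from DUSP1, and HHIPL2 at -1.47, 780169 bp from DUSP10. The flanking genes of DUSP5 were SMNDC1 at 0.65 and SMC3, a cohesin subunit, at -0.02, against 2.37 for DUSP5 itself. Next to DUSP6 were KITLG, the ligand of the KIT receptor, at 0.54 and POC1B at 0.25. Next to DUSP4 were KIF13B at 0.05 and SARAF at -0.15.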
